A study of Mus musculus with 24 samples.

Results

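A set of 10 genes of the liver clock and its first-line outputs was followed in the livers of 24 mice. They are the activator Arntl, the repressors Per1, Per3, Cry1 and Ciart, the nuclear receptors Nr1d1 and Nr1d2, the PAR bZIP activators Dbp and Tef, and Nfil3, a repressor that binds the same sites as Dbp and Tef. The members are the rows of the deposited table that carry one of these 10 gene symbols. All 10 were present among the 2372 genes of the table and all 10 were among the 2299 genes tested. The table is a selection of genes whose basis is not given in the sources used here, so adjusted p-values hold within it only.

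All 24 mice, 12 females and 12 males, were fed the Lieber-DeCarli alcohol liquid diet for 3 weeks and carried adeno-associated virus (AAV) vectors from a pair of injections. The first injection was AAV-shControl or the mixture AAV-shKdm5b AAV-shKdm5c, whose hairpins are directed against histone H3 lysine 4 demethylases (the Kdm5 vectors below). The second was AAV-shControl or AAV-shAhR, directed against the aryl hydrocarbon receptor (the AhR vector below). The 4 combinations in each sex gave 8 groups of 3 mice, and the control groups therefore received control hairpins and alcohol as well. RNA came from whole liver, which holds hepatocytes and other cells, so fewer cells of a type and less RNA per cell cannot be told apart. The labels used here name no strain, age, hairpin promoter, AAV serotype, batch or time of day of collection, and no group without alcohol was analysed here. Since clock genes change with the hour, a difference in collection time between groups cannot be told apart from an effect of the vectors.

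The circadian clock is a feedback loop of transcription. ARNTL (BMAL1) pairs with CLOCK or NPAS2 and switches on genes with an E-box, among them the Per, Cry, Ciart, Nr1d, Dbp and Tef genes. PER, CRY and CIART proteins then inhibit the activator, and NR1D1 and NR1D2 (REV-ERB alpha and beta) bind ROR elements and repress Arntl, Nfil3 and Cry1. DBP and TEF activate genes with a D-box, where NFIL3 represses, and in liver these outputs reach bile acid, drug and lipid metabolism. In liver, Arntl, Nfil3 and Cry1 peak in another part of the day than Nr1d1, Dbp and Per3.

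The promoter windows show where these letters stand in the genes that the results turn on. RefSeq windows of GRCm38.p6, from 250 bases before to 50 bases after a transcription start, were available for 10 of 10 genes, in 13 windows of 300 bases. They were searched on both strands for the E-box CACGTG, the D-box TTANGTAA and the ROR element TAGGTCA or TGGGTCA, patterns that do not overlap one another here. An E-box stood in windows of 4 genes, namely Per1, Cry1, Ciart and Tef, a D-box in Per3 alone, and a ROR element in Arntl and Nfil3. Among 32851 windows of this length, 7.15% held the E-box, 2.32% the D-box and 6.45% the ROR element. These shares are per window and the counts before them per gene, where Arntl, Per1 and Tef have more than a single window, so they are unlike measures. A match is a description of letters, and no match says only that they are absent from the window. The stretches below run 5′ to 3′ in the direction of the gene, with the matched element in capitals.

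Arntl ROR element, chr7:113207530-113207558, plus strand: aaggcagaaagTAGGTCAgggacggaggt
Nfil3 ROR element (read on the opposite strand), chr13:52981034-52981062, minus strand: gcgctcggaacTGACCTActaacacacat
Per1 E-box, chr11:69098763-69098808, plus strand: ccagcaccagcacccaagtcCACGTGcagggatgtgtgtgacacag
Cry1 E-box, chr10:85185089-85185134, minus strand: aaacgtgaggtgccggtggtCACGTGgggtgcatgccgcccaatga
Ciart E-box, chr3:95882319-95882364, minus strand: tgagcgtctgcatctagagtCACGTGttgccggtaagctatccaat
Ciart E-box, chr3:95882261-95882306, minus strand: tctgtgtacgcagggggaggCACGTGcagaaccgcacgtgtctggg
Ciart E-box, chr3:95882247-95882292, minus strand: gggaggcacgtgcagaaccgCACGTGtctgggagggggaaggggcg
Tef E-box, chr15:81802526-81802571, plus strand: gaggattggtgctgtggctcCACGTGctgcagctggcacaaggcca
Per3 D-box, chr4:151044843-151044890, minus strand: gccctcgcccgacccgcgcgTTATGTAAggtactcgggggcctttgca
Per3 D-box, chr4:151044796-151044843, minus strand: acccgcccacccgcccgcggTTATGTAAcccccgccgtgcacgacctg

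The 3 Ciart elements lie between positions -116 and -39 relative to its start, and the last 2 stretches overlap. The Per3 elements begin at positions -205 and -158. The Arntl element lies 31 to 37 bases after one of its starts, in a region of the gene on which NR1D proteins are known to act. Tef held a second E-box at a downstream start, and Dbp, Nr1d1 and Nr1d2 held none of the elements in these windows, although E-boxes elsewhere in Dbp and Nr1d1 are textbook targets.

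Levels are given as FPKM (fragment numbers divided by gene length and by library size), which can be compared between genes. Depth is unknown, because FPKM removes it, and the sum over the table was 281871 to 326460 in female and 380206 to 429780 in male libraries. As a check of the labels, the targeted gene Kdm5c stood at 6.80 ± 0.410 (SD, n = 3) FPKM in control males and 5.14 ± 0.661 in males with the Kdm5 vectors, and at 10.3 ± 0.906 and 9.63 ± 0.503 in the corresponding females. Its log2 difference did not pass in males (-0.38 ± 0.110 SE, limma adjusted p = 0.139) or in females (-0.09 ± 0.110, adjusted p = 0.660). It passed in males when the Kdm5 vectors were added to the AhR vector (-0.51 ± 0.110, adjusted p = 0.0124). In females with both vector sets it stood at 10.7 ± 1.60 FPKM, not below the control mean (log2 difference 0.04 ± 0.110, adjusted p = 0.840), and in males with both the difference was -0.38 ± 0.110 (adjusted p = 0.0785). Levels of the other targets, Kdm5b and Ahr, were not analysed. Each library came from 1 mouse by its label. Among the clock genes, 1 control male (replicate 3) stood apart, at 11.1 FPKM for Nr1d1, 2.87 for Dbp and 0.380 for Per3, each below the other 2 control males. Calls that rest on this library are given with and without it. The ratios and within-group spreads below include it, and no correlation was run with this library alone left out.

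The members differed widely in level and in how far they moved. Nr1d1 was the most abundant by the median over 24 livers, at 35.8 FPKM, and Per3 the least, at 1.00. Tef ranged from 9.87 to 30.8 FPKM, Nfil3 from 6.70 to 22.6, Nr1d2 from 5.29 to 15.1 and Per1 from 3.57 to 13.6. The highest liver exceeded the lowest by 51.7 times for Ciart, 25.1 times for Dbp, 9.80 times for Per3 and 8.82 times for Nr1d1, and by 2.86 to 5.09 times for the other 6. Per3 reached 1 FPKM in 12 libraries and Ciart in 21, and the other 8 genes did so in all 24. Low values of Per3 and Ciart make their fold changes depend on the 0.5 FPKM added before taking logarithms, which understates them.

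**Figure D1:**
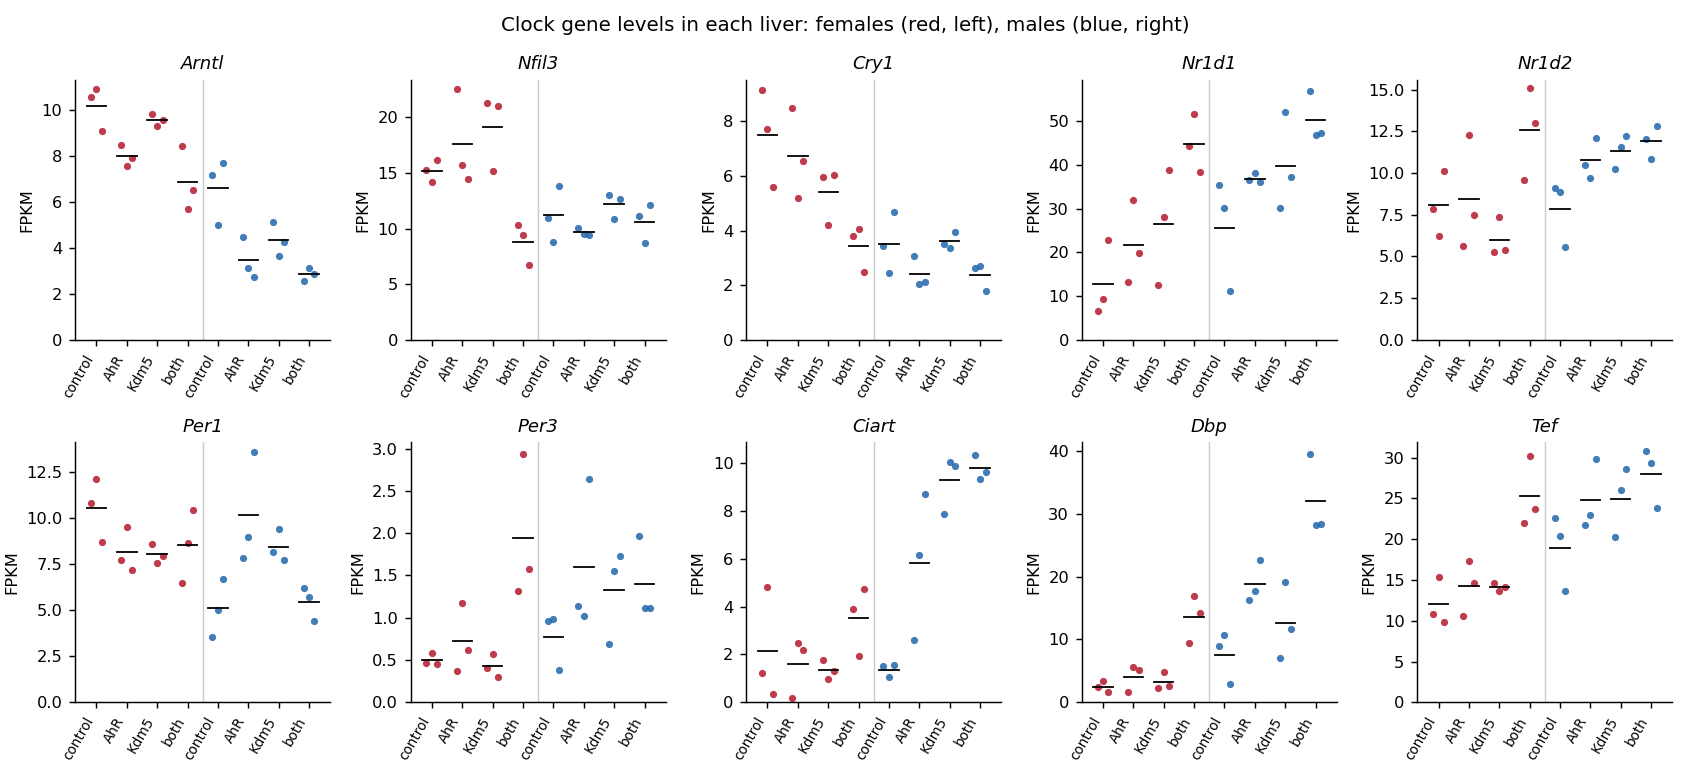
Level in FPKM of the 10 clock genes in each of 24 livers (points) with the mean of 3 mice (black line), for females (red) and males (blue) that received control vectors, the AhR vector, the Kdm5 vectors or both. In females Dbp, Tef and Per3 stand apart only where both vector sets were given, while in males Ciart is above all controls in each of the other 3 groups.

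In females that received both vector sets, against control vectors, 7 of the 10 members changed, beside 11.6% of all genes tested: Dbp, Tef, Nr1d1 and Per3 rose, and Arntl, Cry1 and Nfil3 fell. All 7 had groups that did not overlap, which held for 32.8% of all genes. The median absolute log2 change was 0.99 for the members and 0.21 for all genes tested. Here and below, values of all genes are given for scale. The 10 members were chosen with earlier results of these data known, so a larger share among them is no test of the set.

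Of the PAR bZIP activators, Dbp (chr7:45705100-45710203) stood at 2.41, 3.34 and 1.67 FPKM in the control females and at 9.47, 17.0 and 14.2 FPKM in the females with both vector sets. Every liver of the second group lay above every liver of the first. The log2 change of Dbp was 2.24 ± 0.442 (SE), a 4.73-fold rise (adjusted p = 0.00631). Tef (chr15:81802673-81826863) went from 10.9, 15.3 and 9.87 FPKM to 22.0, 30.2 and 23.7 FPKM. Its groups were again apart, with a log2 rise of 1.05 ± 0.206 (adjusted p = 0.00631). The span of Dbp shares 741 bases with Sphk2, a sphingosine kinase gene, and strand is not stated for the counting. Sphk2 rose by 0.65 ± 0.142 log2 in the same comparison (adjusted p = 0.00953), and shared reads were not tested.

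Nfil3 (chr13:52967209-52982878), the competitor of Dbp and Tef at D-boxes, went the other way. It stood at 15.2, 14.2 and 16.1 FPKM in control females and at 10.3, 9.45 and 6.70 FPKM with both vector sets, a log2 change of -0.77 ± 0.188 (adjusted p = 0.0171). All 3 livers with both vector sets were below all 3 controls. Per3 (chr4:150997018-151044707), the member whose promoter window holds the D-boxes shown above, was 0.470, 0.580 and 0.450 FPKM in controls and 1.32, 2.94 and 1.58 FPKM with both vector sets. The lowest of the latter was above the highest control, and the log2 change was 1.24 ± 0.320 (adjusted p = 0.0232).

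In the arm that represses Arntl, Nr1d1 (chr11:98767932-98775377) rose 3.87-fold. Its values were 6.46, 9.20 and 22.7 FPKM in control females and 44.4, 51.6 and 38.3 FPKM with both vector sets, with a log2 change of 1.95 ± 0.443 (adjusted p = 0.0123). The third control liver was higher than its 2 group mates but still below all 3 treated livers. The span of Nr1d1 shares 1075 bases with Thra, a thyroid hormone receptor gene on the opposite strand that was not analysed here, and the spans of Arntl, Ciart and Per3 also overlap other annotated genes. Nr1d2 (chr14:18204056-18239106) had a log2 difference of 0.61 ± 0.235 that did not pass (adjusted p = 0.0865), and its groups overlapped.

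Arntl (chr7:113178471-113314126) fell from 10.6, 10.9 and 9.09 FPKM to 8.46, 5.72 and 6.51 FPKM, a log2 change of -0.55 ± 0.170 (adjusted p = 0.0442). Cry1 (chr10:85131700-85185054) fell from 9.16, 7.72 and 5.60 FPKM to 3.79, 4.06 and 2.49 FPKM, a log2 change of -1.02 ± 0.233 (adjusted p = 0.0127). Both genes were lower in every treated liver than in any control. The E-box repressors Per1, with a log2 difference of -0.31 ± 0.213 (adjusted p = 0.345), and Ciart, with 0.95 ± 0.546 (adjusted p = 0.246), did not pass and their groups overlapped. Without control replicate 2, its highest control, Ciart passed with a log2 change of 1.67 (adjusted p = 0.0441).

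Dbp and Tef passed whichever library was left out. The number of members passing was 2 without control replicate 1 and 3 without replicate 3 of the females with both vector sets, where in both cases Arntl, Cry1, Nfil3 and Per3 missed the threshold and, without control replicate 1, Nr1d1 missed it too (adjusted p = 0.0707). Fitted on the 2 groups alone, 1 member passed, Dbp, and Arntl, which passed in 2 of 6 fits without 1 library, also missed the threshold with median-of-ratios scaling (adjusted p = 0.0561), with a pseudocount of 0.1 (adjusted p = 0.0503), and without control replicate 2 or replicate 2 of the treated females.

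**Figure D2:**
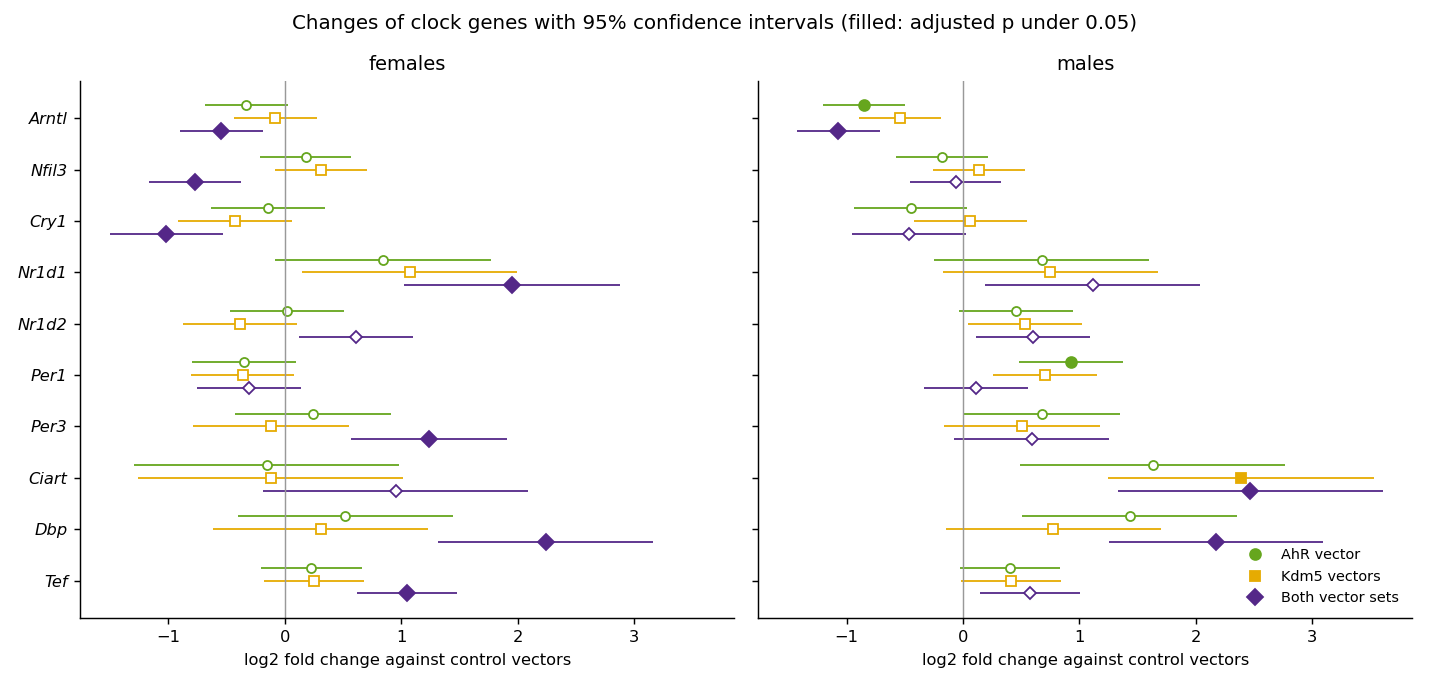
Log2 fold change of each clock gene against control vectors of the same sex, with 95% confidence intervals (horizontal lines) for the AhR vector (green circles), the Kdm5 vectors (yellow squares) and both (purple diamonds); filled symbols passed at an adjusted p of 0.05. With both vector sets, Dbp lies near 2.24 in females and 2.17 in males, while Nfil3 is at -0.77 in females and -0.06 in males.

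In males that received both vector sets, 3 members changed beside 2.35% of all genes tested: Dbp and Ciart rose and Arntl fell. Groups did not overlap for 7 members, beside 20.7% of all genes. Arntl was 7.19, 4.98 and 7.69 FPKM in control males and 2.56, 3.12 and 2.86 FPKM with both vector sets. No treated liver reached the lowest control, and the log2 change was -1.07 ± 0.170 (adjusted p = 0.00233), the call that held whichever library was left out.

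Dbp went from 8.96, 10.8 and 2.87 FPKM in control males to 39.4, 28.2 and 28.3 FPKM, the highest values of Dbp in the series. The log2 change was 2.17 ± 0.442 (adjusted p = 0.0144). Without control replicate 3, the low liver, it was 1.64 and missed the threshold (adjusted p = 0.0719), as it did without replicate 1 of the treated males and in a fit of the 2 groups alone (adjusted p = 0.0619). In males Sphk2 had a log2 difference of -0.27 ± 0.142 that did not pass (adjusted p = 0.398).

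Ciart (chr3:95878500-95882257), which encodes a repressor of the CLOCK and ARNTL pair and whose window holds 3 E-boxes, was 1.50, 1.05 and 1.56 FPKM in control males and 10.4, 9.33 and 9.63 FPKM with both vector sets. Livers within each group lay close together and the groups were far apart, with a log2 change of 2.47 ± 0.546 (adjusted p = 0.0208). The size stayed between 2.34 and 2.54 in the 6 fits that left out 1 library, but it passed in 1 of them. The test takes the spread of Ciart from all groups, and Ciart varied most in control females. With 1 member passing without control replicate 3 or without replicate 1 of the treated males, the count rests on these libraries as well. Nr1d1, with a log2 difference of 1.11 ± 0.443 (adjusted p = 0.211), Tef, with 0.58 ± 0.206 (adjusted p = 0.166), and Nr1d2, with 0.60 ± 0.235 (adjusted p = 0.210), did not pass, although their groups did not overlap. Cry1 and Nfil3 had log2 differences of -0.46 ± 0.233 and -0.06 ± 0.188, with overlapping groups.

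Whether the combined effect differed between the sexes was tested directly, and no member passed, beside 5.92% of all genes. Of the 2299 genes 630 had an unadjusted limma p under 0.05, 2 members among them. Among the members, Nfil3 had the largest gap relative to its error. Its change in females minus that in males was -0.71 ± 0.266 log2 (adjusted p = 0.0968). For Dbp the difference was 0.07 with a 95% interval from -1.24 to 1.37, and for Nr1d2 it was 0.01 with an interval from -0.68 to 0.71. For Cry1 it was -0.55 with an interval from -1.24 to 0.14. The calls in 1 sex and not in the other are therefore not shown to differ.

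The single vector sets were given to separate groups, which shared their control livers. With the Kdm5 vectors alone in males, 1 member changed beside 1.22% of all genes: Ciart rose to 7.88, 10.1 and 9.87 FPKM from the control values given above. All 3 treated livers exceeded all 3 controls, a log2 change of 2.39 ± 0.546 (adjusted p = 0.0359), and the call was lost in each of the 6 fits without 1 library while the size stayed between 2.26 and 2.50. Per1 (chr11:69095108-69109965) was 3.57, 5.02 and 6.70 FPKM in control males and 8.17, 9.38 and 7.72 FPKM with the Kdm5 vectors. These groups did not overlap, but the log2 difference of 0.71 ± 0.213 did not pass (adjusted p = 0.163). With the Kdm5 vectors alone in males, groups did not overlap for 3 members, beside 14.8% of all genes.

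With the AhR vector alone in males, 2 members changed beside 1.09% of all genes: Per1 rose and Arntl fell. Per1 was 7.84, 8.99 and 13.6 FPKM, each above every control liver, with a log2 change of 0.93 ± 0.213 (adjusted p = 0.0366). Arntl was 4.48, 3.13 and 2.75 FPKM, each below every control liver, with a log2 change of -0.85 ± 0.170 (adjusted p = 0.0128). Ciart, at 2.59, 6.15 and 8.71 FPKM, and Dbp, at 16.4, 17.6 and 22.6 FPKM, also lay above all control males without passing (log2 differences of 1.63 ± 0.546, adjusted p = 0.158, and 1.43 ± 0.442, adjusted p = 0.136). Groups did not overlap for 7 members, beside 16.6% of all genes. Each call passed in 2 of 6 fits that left out 1 library. No member passed without control replicate 1 or without replicate 2 or 3 of the treated males, 1 passed without control replicate 2 (Arntl) or 3 (Per1), and with median-of-ratios scaling 1 passed, where Per1 had an adjusted p of 0.0603. Neither passed when the 2 groups were fitted alone.

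In females neither set alone moved a member past the threshold by limma. With the Kdm5 vectors this was 0 of 10 beside 6.87% of all genes. Of the 2299 genes 536 had an unadjusted limma p under 0.05, among them 1 member. That member was Nr1d1, at 12.6, 28.0 and 38.7 FPKM, with a log2 difference of 1.07 ± 0.443 (adjusted p = 0.142) and groups that overlapped. It passed without control replicate 3, the highest control, with an adjusted p of 0.0447. With the AhR vector it was 0 of 10 beside 0.217%, and 0 members were among the 297 genes at an unadjusted limma p under 0.05. Dbp was 2.24, 4.80 and 2.66 FPKM with the Kdm5 vectors and 1.57, 5.65 and 5.11 FPKM with the AhR vector, in both cases overlapping the controls.

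The sexes were again compared directly. For the Kdm5 effect 0 members passed beside 1.74% of all genes. Of the 2299 genes 393 had an unadjusted limma p under 0.05, among them 3 members. For these members, the change in females minus that in males was -1.07 ± 0.302 log2 for Per1 (adjusted p = 0.0723) and -2.51 ± 0.772 for Ciart (adjusted p = 0.0949), among others. For the AhR effect 0 members passed beside 0.565% of all genes, again with 3 among the 318 genes at an unadjusted limma p under 0.05. The difference for Per1 was -1.28 ± 0.302 (adjusted p = 0.0605). Per1 was lower on average in females with either set alone, with log2 differences of -0.36 and -0.35 that did not pass. Without the third control female, 1 member passed in each of these comparisons, Ciart for the Kdm5 effect (adjusted p = 0.0345) and Per1 for the AhR effect (adjusted p = 0.0478). Without control male replicate 3 or replicate 1 of the males with the AhR vector, Per1 also passed for the AhR effect.

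Each vector set was also compared with and without the other. In females, when the AhR vector was added to the Kdm5 vectors, 5 members changed beside 2.09% of all genes, with groups that did not overlap for 8 members beside 27.2%. Nfil3 fell from 21.3, 15.2 and 21.0 FPKM to 10.3, 9.45 and 6.70 FPKM, a log2 change of -1.08 ± 0.188 (adjusted p = 0.0105), the second smallest p of the table. Every liver with both vector sets was below every liver with the Kdm5 vectors alone. Dbp rose by 1.94 ± 0.442 (adjusted p = 0.0252), Nr1d2 by 1.00 ± 0.235 (adjusted p = 0.0267), Per3 by 1.35 ± 0.320 (adjusted p = 0.0275) and Tef by 0.80 ± 0.206 (adjusted p = 0.0436).

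For Nr1d2 the values were 5.29, 7.34 and 5.37 FPKM with the Kdm5 vectors alone and 9.57, 15.1 and 13.0 FPKM with both. The groups were apart, and this was the one comparison in which Nr1d2 passed. The call of Tef was lost whichever library was left out, and also with a pseudocount of 0.1 (adjusted p = 0.0557). The count of 5 fell to 0 without replicate 3 of either group and to 1 without replicate 2 of the females with both vector sets, where adjusted p-values rose while the log2 changes stayed close to those given. It fell to 2 without replicate 1 of the females with the Kdm5 vectors, and to 0 in a fit of the 2 groups alone. With a filter of at least 5 FPKM, under which Per3 was not tested, 3 passed.

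When the Kdm5 vectors were added to the AhR vector in females, 1 member changed beside 0.696% of all genes: Nfil3 fell from 22.6, 15.7 and 14.4 FPKM by 0.95 ± 0.188 on the log2 scale (adjusted p = 0.0238). No liver with both vector sets reached the lowest liver with the AhR vector alone. The call was lost without replicate 1 of the females with the AhR vector, its highest liver, or without replicate 3 of those with both. Tef, Dbp and Cry1, with log2 differences of 0.82 ± 0.206, 1.72 ± 0.442 and -0.87 ± 0.233, had adjusted p-values from 0.0695 to 0.0852 and groups that did not overlap. In this comparison groups did not overlap for 6 members, beside 19.6% of all genes.

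In males the AhR vector added to the Kdm5 vectors moved 0 members past the threshold in limma beside 0.913% of all genes. Of the 2299 genes 379 had an unadjusted limma p under 0.05, among them 4 members. These members included Dbp, which lay at 7.10, 19.1 and 11.6 FPKM with the Kdm5 vectors and higher in all 3 livers with both (log2 difference 1.40 ± 0.442, adjusted p = 0.124). Groups did not overlap for 4 members, beside 27.5% of all genes. Ciart was at 9.27 ± 1.21 FPKM with the Kdm5 vectors and 9.77 ± 0.524 with both, with a 95% interval of the log2 difference from -1.06 to 1.22. The Kdm5 vectors added to the AhR vector changed 1 member beside 3.26% of all genes. This was Per1, which fell to 6.20, 5.71 and 4.41 FPKM, below every male with the AhR vector alone, a log2 change of -0.82 ± 0.213 (adjusted p = 0.0383). That call was lost with median-of-ratios scaling (adjusted p = 0.0556) and without replicate 2 or 3 of either group. For the Kdm5 vectors added to the AhR vector in males, groups did not overlap for 4 members, beside 23.6% of all genes.

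Whether the vector sets acted together as the sum of their single effects was tested as an interaction. In females 1 member passed beside 0.609% of all genes: Nfil3, with a difference of -1.26 ± 0.266 log2 between the effect of a vector set in the presence and in the absence of the other (adjusted p = 0.0263). Its group means were 15.2 ± 0.961, 17.6 ± 4.39, 19.2 ± 3.45 and 8.81 ± 1.87 FPKM (SD, n = 3) with control vectors, the AhR vector, the Kdm5 vectors and both. The single sets thus left Nfil3 at or above the control mean, and both together placed it below all other females. In males 1 member passed beside 1.61% of all genes: Per1, with an interaction of -1.52 ± 0.302 log2 (adjusted p = 0.0158). Its means ran 5.10 ± 1.57, 10.1 ± 3.05, 8.42 ± 0.859 and 5.44 ± 0.925 FPKM in the same order. All livers with either set alone lay above all livers with none or both, although the separate differences of the males with the Kdm5 vectors alone from controls (adjusted p = 0.163) and from both sets (adjusted p = 0.168) did not pass. Nfil3 passed in 7 and Per1 in 9 of the 12 fits without 1 library, and neither did when the 4 groups of its sex were fitted alone.

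Females and males with control vectors differed in 5 members beside 42.5% of all genes, so that the members' share is near that of the table. Per1 was 10.8, 12.1 and 8.72 FPKM in females, each above every control male, a log2 difference of 1.01 ± 0.213 (adjusted p = 0.000855). Cry1 was higher by 1.00 ± 0.233 (adjusted p = 0.00191) and Arntl by 0.61 ± 0.170 (adjusted p = 0.00759), both without overlap. Between these groups 4 of 10 members did not overlap, beside 47.3% of all genes, so the members' share is not above that of the table. Dbp was lower in females by a log2 difference of -1.30 ± 0.442 (adjusted p = 0.0236) and Tef by -0.62 ± 0.206 (adjusted p = 0.0201), and in both the groups overlapped at control male replicate 3.

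Median-of-ratios scaling moved the median log2 difference of all genes in this comparison from 0.15 to 0.00, a shift of 0.15. Measured against that shift, 2 members were higher (Per1 and Cry1) and 3 lower (Dbp, Tef and Nr1d1, which reached an adjusted p of 0.0373), while Arntl missed the threshold. Dbp and Tef also lost their calls without control male replicate 1 or 2 or control female replicate 1 or 3. Without control male replicate 3, 7 members passed, with Nr1d1 and Nfil3 added. Without control male replicate 2, 2 passed, and without replicate 1 of the control males or of the control females, 3 passed.

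The balance of the loop's arms was also followed as a ratio within each liver, which does not depend on the scaling of a library. Dbp over Arntl ran from 0.184 to 0.306 in control females, from 0.184 to 0.746 with the AhR vector, from 0.228 to 0.514 with the Kdm5 vectors and from 1.12 to 2.97 with both. Only the last of these 4 female groups was apart from the other 3. In males the ratio ran from 0.373 to 2.16 in controls, from 1.39 to 5.20 with the Kdm5 vectors, from 3.65 to 8.22 with the AhR vector and from 9.04 to 15.4 with both. The controls overlapped the males with the Kdm5 vectors, while the males with both sets were above all other livers. Nr1d1 over Arntl ran from 0.609 to 2.50 in control females and from 5.24 to 9.02 with both vector sets, and from 1.44 to 6.05 in control males and from 15 to 22.3 with both. These ratios are descriptions and share the values tested above.

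**Figure D3:**
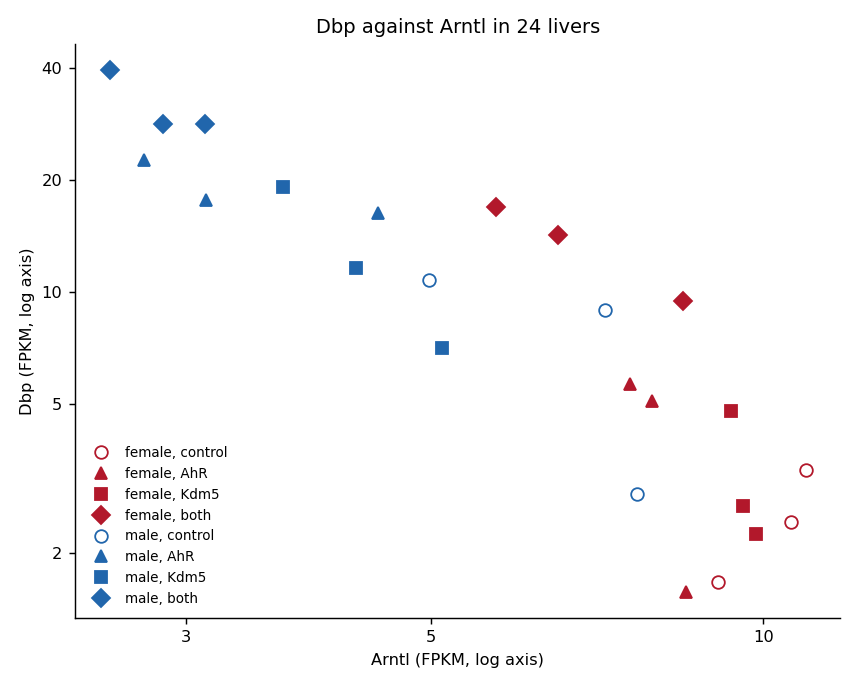
Dbp against Arntl in 24 livers, both in FPKM on log axes, for females (red) and males (blue); open circles are control vectors and filled symbols the AhR vector (triangles), the Kdm5 vectors (squares) and both (diamonds). Livers spread from high Arntl and low Dbp in control females to low Arntl and high Dbp in males with both vector sets, where Dbp is 28.2 to 39.4 FPKM.

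Mice of the same group also differed from one another in these genes. The within-group SD on the log2 scale was above the median of all genes tested (0.18) for 10 of 10 members, with a member median of 0.30. Ciart (0.74), Nr1d1 (0.60), Dbp (0.60) and Per3 (0.42) were among the 10% of genes that varied most within groups, and Arntl varied least of the members (0.21). Ciart ranked 32 of 2299 genes. In control females it was 1.24, 4.81 and 0.340 FPKM, a 14.1-fold span within 1 group, while in males with both vector sets the span was 1.11-fold. Of the total variance of Arntl, 7.97% lay within groups, against 35.7% for Nr1d2 and a median of 33.8% over all genes.

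Some of these differences between mice of a group ran together across members. After group means were subtracted, 6 of 45 pairs passed over 24 livers by a permutation test of Pearson's r within groups (100000 permutations, two-sided, Benjamini-Hochberg adjustment over the 45 pairs), and 6 passed by Spearman's rho. The share of passing pairs among other genes was not computed, so this is not shown to be particular to clock genes. The extremes among 2217 genes outside the set were as strong, with r = 0.84 for Tprkb with Dbp and r = -0.80 for Baz2a with Arntl. Per3 went with Tef (r = 0.84, rho = 0.83, adjusted permutation p = 0.0027), with Dbp (r = 0.77, rho = 0.75, adjusted permutation p = 0.0027) and with Nr1d2 (r = 0.70, rho = 0.70, adjusted permutation p = 0.00975). Dbp went with Tef (r = 0.80, rho = 0.74, adjusted permutation p = 0.01). Within groups, mice with more of the PAR bZIP activators or more Nr1d2 thus had more Per3, which reached 1 FPKM in 12 of 24 libraries. The part of the D-boxes in the Per3 window was not tested.

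Dbp ran against Nfil3 (r = -0.75, rho = -0.75, adjusted permutation p = 0.0233) and Arntl against Nr1d2 (r = -0.56, rho = -0.61, adjusted permutation p = 0.0349). Arntl and Per3 had a larger r of -0.67 that did not pass (adjusted permutation p = 0.0718), and one of -0.71 that passed without the 2 livers farthest from the median of Arntl (adjusted permutation p = 0.0281). All 6 pairs had the same sign in females and in males, as did 37 of the 45. Within females alone 1 pair passed, Arntl with Nr1d2 (r = -0.76, adjusted permutation p = 0.0301), and within males alone 0. Without the 2 livers farthest from the median of the first gene, Dbp with Tef had an r of 0.62 (adjusted permutation p = 0.0853) and Dbp with Nfil3 one of -0.54 (adjusted permutation p = 0.173), so that both relations rest in part on those livers, while the other 4 passed. The labels give no batch, so no value within batches could be had.

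**Figure D4:**
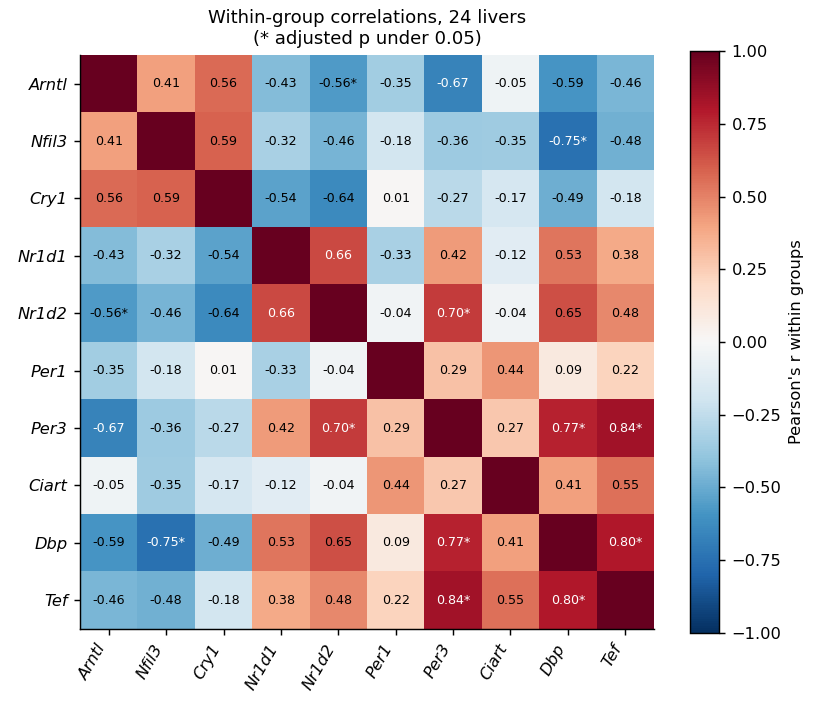
Pearson's r between clock genes over 24 livers after subtraction of group means, from -1 (blue) to 1 (red), with an asterisk where the adjusted permutation p is under 0.05. Per3, Dbp, Tef, Nr1d1 and Nr1d2 are positive with each other, and Arntl, Nfil3 and Cry1 form a second positive block that is negative against the first.

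Of 20 further clock genes listed, 5 were tested. In females with both vector sets 0 of 5 passed in limma, and with the AhR vector alone in males and with the AhR vector added to the Kdm5 vectors in females also 0 of 5. In males with both vector sets 1 of 5 rose, beside 2.35% of all genes. Usp2, a deubiquitinase whose transcript cycles in liver, went from a mean of 3.03 to 8.52 FPKM (log2 change 1.31 ± 0.326, limma adjusted p = 0.0383). Between control females and males 3 of 5 were higher in females, namely Npas2, a partner of ARNTL, by 1.10 ± 0.293 (adjusted p = 0.00508), Noct, a phosphatase that cycles in liver, by 1.30 ± 0.431 (adjusted p = 0.0201), and Fbxl21, an F-box gene, by 0.65 ± 0.235 (adjusted p = 0.0323). That comparison called 42.5% of all genes.

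Among rhythmic liver genes driven by or following the clock, 22 were tested. In females with both vector sets 1 rose and 2 fell, near the 11.6% of all genes that passed. The list median was -0.14 log2 beside 0.02 for all genes. Ces3a, a carboxylesterase, fell from a mean of 394.3 to 232.4 FPKM (log2 change -0.79 ± 0.222, adjusted p = 0.0323). Ces2a, another carboxylesterase, fell by 0.52 ± 0.115 log2 (adjusted p = 0.0103), and Wnk1, a kinase gene, rose by 0.37 ± 0.116 (adjusted p = 0.0453). In males with both vector sets 2 rose and 0 fell, beside 2.35% of all genes. Lpin1, a phosphatidate phosphatase, went from 9.89 to 44.1 FPKM (log2 change 2.23 ± 0.499, adjusted p = 0.0218), and Upp2, a uridine phosphorylase, from 32.0 to 130.6 FPKM (2.01 ± 0.472, adjusted p = 0.0262).

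With the AhR vector alone in males 1 of the 22 rose, beside 1.09% of all genes. It was Herpud1, a gene of the endoplasmic reticulum stress response, by 1.20 ± 0.213 (limma adjusted p = 0.00628). With the AhR vector added to the Kdm5 vectors in females 0 changed, beside 2.09%. Control females were higher than control males in 4 and lower in 5 of the 22, near the 42.5% of all genes that differed. Elovl3, a fatty acid elongase with known sex bias, was lowest in females relative to males (7.54 against 194.7 FPKM, log2 difference -4.60 ± 0.294, adjusted p = 1.5e-10). Avpr1a (0.91) and Lpin1 (1.88) were higher in females and Ces3a (-1.04) and Fmo5 (-0.39) lower, as log2 differences with adjusted p-values from 0.000418 to 0.00712.

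Lists that respond to temperature, glucocorticoids and feeding were read because these cues reset liver clocks. In females with both vector sets 0 of 2 temperature genes and 0 of 10 glucocorticoid-responsive genes passed, and 2 of 14 feeding genes rose, among them Cpt1a, which carries fatty acids into mitochondria, by 0.68 ± 0.179 (adjusted p = 0.0249). The feeding count is near the 11.6% of all genes that passed. In males with both sets 1 of 14 feeding genes fell, Fasn (-0.82 ± 0.207, adjusted p = 0.0389), and 0 passed in the temperature and glucocorticoid lists, beside 2.35% of all genes. With the AhR vector alone in males 1 of 14 feeding genes rose, Bcl6, a repressor, by 2.38 ± 0.287 (adjusted p = 0.000111), and 1 of 10 glucocorticoid-responsive genes, which is Per1 itself. These counts stand beside 1.09% of all genes. In females with the AhR vector added to the Kdm5 vectors 0 passed in all 3 lists. With the Kdm5 vectors added to the AhR vector in males, 2 of 10 glucocorticoid-responsive genes rose and 3 fell, beside 3.26% of all genes. Mt1 (1.13 log2) and Fkbp5 (1.07) rose, and Sgk1 (-0.77), Tsc22d3 (-1.12) and Per1 itself fell. Their limma adjusted p-values ran from 0.0171 to 0.0466. There 1 of 14 feeding genes fell, Bcl6 (-3.29 ± 0.287, limma adjusted p = 7.88e-07). Bcl6 also had an interaction of -4.05 ± 0.406 log2 in males.

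Control females were higher in 6 of 10 glucocorticoid-responsive genes, Per1 included, with Sgk1 (1.20 ± 0.175, adjusted p = 2.34e-05) and Pdk4 (1.09 ± 0.233, adjusted p = 0.000907) leading beside Per1. The share of all genes that differed in either direction was 42.5%. In that list the median log2 difference was 1.15, beside 0.15 for all genes. Feeding genes were higher in 3 and lower in 2 of 14, which is not above the share of all genes. They were led by Asns (-1.65), Srebf1 (1.29) and Ppargc1a (1.18), and the heat shock gene Hspa1b was lower (-1.10 ± 0.336, limma adjusted p = 0.0127). The part of hormones, feeding or temperature in the clock values was not tested.

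Markers of other liver cells moved with some of these comparisons. In females with both vector sets 2 of 6 stellate markers (Dcn and Pdgfra), 1 of 7 endothelial markers (Gpr182) and 1 of 8 macrophage markers (Cd163) rose, and 0 of 7 hepatocyte markers passed. Of all genes 11.6% passed there, and the endothelial and macrophage counts are near that share. Summed stellate markers ran from 125.0 to 139.2 FPKM in control females and from 160.9 to 183.9 with both vector sets, and endothelial ones from 104.9 to 123.8 and from 137.4 to 152.7. Both sums were apart. They were also apart from control females with the Kdm5 vectors alone, at 143.6 to 162.5 FPKM for stellate and 133.4 to 136.9 FPKM for endothelial markers. In males with both sets 1 of 7 hepatocyte markers (Hnf4a) and 1 of 3 blood and lymphoid markers (Cd74) rose, beside 2.35% of all genes. With the AhR vector alone in males Cd74 rose, beside 1.09% of all genes. Control females exceeded control males in 7 of 8 macrophage, 5 of 6 stellate, 4 of 7 endothelial and 3 of 3 blood and lymphoid markers. Hepatocyte markers were higher in 1 (Hnf4a) and lower in 2 (Cyp2e1 and Apoa1) of 7. Between these groups 42.5% of all genes differed in either direction. The only cholangiocyte marker tested, Sox9, was lower in control females. The part of cell composition in the clock values was not tested.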

How the data were processed

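Liver RNA of 24 mice in 8 groups of 3 was measured, with groups taken from the labels and replicates numbered in sample order. The deposited table holds FPKM values, per the file headers, to 2 decimals. The tools HISAT and Bowtie2 and the build GRCm38.p6 are named in the submitters' processing notes. Tool versions, counting step and strand use were not given there. Depth is unknown, and no counting interval is given. Nothing in the labels tells how separate the mice of a group were kept, so p-values measure the spread between these 24 samples.

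Values were tested as log2(FPKM + 0.5) in limma 3.58.1 (R 4.3.3) with 1 mean per group, a variance trend and robust moderation over 16 residual degrees of freedom, in 16 comparisons. A gene entered if 3 or more libraries reached 1 FPKM (2299 did and 73 did not). Adjusted p-values are Benjamini-Hochberg values over the 2299 genes, with a threshold of 0.05. A ± after a log2 change is its SE and after FPKM the SD of 3 mice. Fold changes are on the log2(FPKM + 0.5) scale and understate changes of low genes.

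The 10 members and all lists were chosen with earlier results of these data known. The text names every member, then up to 6 passing clock or rhythmic genes and up to 3 temperature, glucocorticoid and feeding genes, by adjusted p, in comparisons where at least 2 members passed, and for likeness to Arntl, Nr1d1 and Dbp the 5 genes at each end of r. Some genes that this rule takes are not reported here. Marker genes and Sphk2 were named after their values were seen. The same holds for the glucocorticoid and feeding genes given for the Kdm5 vectors added to the AhR vector in males. The fit was tested on simulated data: in 20 simulated tables of 2299 genes with 200 changed, it recovered 51.6% of changes of 0.5 log2 and 89.4% of changes of 1 log2 in the comparison of both vector sets in females, with 5.02% of calls false. These shares average over changed genes drawn from all tested, while the within-group SD of all 10 members was above the median of all genes. The simulated noise was normal and independent between genes, with no outlying library, so the recovered and false shares need not carry over to the members. Alternatives were median-of-ratios scaling, no filter, a filter at 5 FPKM, pseudocounts of 0.1 and 1, fits on the compared groups alone, and leaving out each library. Correlations used Python 3.11.15 with numpy 2.4.6, pandas 2.3.3 and scipy 1.17.1, and plots matplotlib 3.10.9. Promoter windows are from RefSeq on GRCm38.p6.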

Additional observations from a re-analysis of the deposited data

Results flagged for a closer look

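The interaction of the vector sets differed from 0 for 1 member in each sex. For Nfil3 in females, the effect of the AhR vector beside the Kdm5 vectors minus its effect beside control vectors was -1.26 log2, and for Per1 in males it was -1.52 log2. In both cases it was the test of the difference itself, over all genes, that drew attention to the gene. The same difference was -0.02 log2 for Nfil3 in males (95% interval from -0.57 to 0.54) and 0.41 log2 for Per1 in females (95% interval from -0.22 to 1.04), and the difference between the sexes was not tested.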

How the results depend on the processing

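No member that passed changed direction under any alternative run. Outside the fits without 1 library, 915 single results kept their side of the threshold, 28 lost a call and 1 gained one. In the fits without 1 library these numbers were 1176, 75 and 9. Median-of-ratios scaling left 1 member passing for the AhR vector in males and 0 for the Kdm5 vectors added to the AhR vector in males. A filter at 5 FPKM left 3 for the AhR vector added to the Kdm5 vectors in females, and a pseudocount of 0.1 left 0 for the Kdm5 vectors in males. Fits on the compared groups alone, which have fewer samples to estimate the spread, left 1 for both vector sets in females, 3 for females against males, and 0 for the AhR vector in males, for each added vector set that had calls and for both interactions, and Dbp lost its call for both vector sets in males. Among the correlations, 1 pair passed in females alone and 0 in males alone, each with 12 livers, and 8 passed without the 2 farthest livers.

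With 1 library left out, the number of members passing ran from 2 to 7 for both vector sets in females, 1 to 3 for both in males, 0 to 2 for the AhR vector in males, 0 to 0 for the Kdm5 vectors in males, 0 to 4 for the AhR vector added to the Kdm5 vectors in females, 0 to 1 for the Kdm5 vectors added in females and in males, 0 to 1 for each interaction, 0 to 1 for the Kdm5 vectors in females and for the sex differences of the single effects, and 2 to 7 for females against males. Where the text gives no value for the alternative, the cause was not tested. No paired analysis was possible because replicate numbers here follow sample order and pair no mice. With 3 mice a group, even differences above 1 log2 in the more variable members often did not pass. With the AhR vector alone in males, Dbp at 1.43 (limma adjusted p = 0.136) and Ciart at 1.63 (limma adjusted p = 0.158) are examples. A difference that did not pass is therefore not shown to be absent.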

Other observations

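As a description with no test, genes outside the 10 members were ranked by how closely their levels followed a member within groups, over 24 livers and 2217 genes with a mean of at least 1 FPKM. Clpx, a mitochondrial protease subunit gene, was nearest to Arntl (r = 0.69), followed by Pla2g12b, Slc17a8, Slc15a5 and Wfdc21, and Baz2a ran most strongly against it (r = -0.80), followed by Chp1, Urod, Mtss1 and Plcxd2. Ggact was nearest to Nr1d1 (r = 0.81), followed by Zfp385b, Cat (the catalase gene), Fbxo21 and Adi1, and Sec14l4 was farthest (r = -0.75), followed by Ppp1r3b, Adamts1, Tbc1d30 and Skil. Tprkb was nearest to Dbp (r = 0.84), followed by Ak3, Cyp2a5, H2-DMb1 and Igfbp4, and Celsr1 was farthest (r = -0.75), followed by Gm44805, Gstp1, Bmyc and Slc17a8. Slc17a8 thus stood at the near end for Arntl and at the far end for Dbp. Cyp2a5 is a cytochrome P450 whose transcript is known to depend on PAR bZIP factors in mouse liver. The other genes of these lists were not checked for such a link.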
